A study of Mus musculus with 28 samples.

Results

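The effect of Oxalobacter formigenes (Oxf), an anaerobic gut bacterium that uses oxalate as its energy source, was compared with vehicle in the ventricular myocardium of mice with intact kidneys. The comparison takes every library whose label gives sham surgery, which is 15 of the 28 libraries of the study: 5 from sham mice given Oxf (sham-Oxf) and 10 from sham mice given vehicle (sham-vehicle). The study used 40 adult male C57BL/6 mice, operated at 6 weeks of age, either by 5/6 nephrectomy to induce chronic kidney disease (CKD) or by a sham operation, and planned 10 mice for each combination of surgery and gavage. All groups ate a diet with 1% hydroxyproline, a precursor of oxalate, and 0.5% calcium, so the sham-vehicle hearts are also hearts of hydroxyproline-fed mice. On day 7 a single oral gavage delivered Oxf in 200 µl of culture medium, or the medium alone as vehicle. The other 5 sham-Oxf mice of the plan were not analysed here. RNA was total RNA from frozen ventricle of mice perfused at collection, and each library carries its own mouse number.

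Each heart carries a circadian clock of its own. Arntl (the gene of BMAL1) and its partners Clock and Npas2 switch on genes with E-box sequences, among them the Per, Cry, Ciart and Bhlhe repressors, which turn the activators off again, and the output factors Dbp, Tef and Hlf, which act on D-box sequences. Nr1d1 and Nr1d2 repress, and Rora and Rorb activate, Arntl itself, so Arntl and the Per and Dbp group peak at opposite times of day. The heart is also an endocrine organ that secretes natriuretic peptides under load. The hour at which the hearts were collected is not given in the sources used here.

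Total counts are given in units of 1000000 (M). The libraries held 31.2 ± 6.94 M counts in sham-Oxf (SD, n = 5) and 40.5 ± 8.79 M in sham-vehicle (SD, n = 10). Sham-Oxf replicate 1 (mouse 921) stood apart. It listed 15879 genes with a count, where the other 4 sham-Oxf libraries listed 30306 to 33995 and the sham-vehicle libraries 30172 to 33473. Of the genes tested, 8137 were at 0 in this library and above 0 in each of the other 14 sham libraries, and no other sham library had more than 16 such genes. Log2 fold changes and list counts are therefore given with and without it. The ventricular label was checked by the muscle genes Myh6, Tnnt2, Tnni3, Actc1 and Myl2, which were abundant in all 15 libraries: Myh6, the main myosin heavy chain of mouse ventricle, was at 12467 to 17750 counts in each 1000000 after scaling (CPM) in sham-Oxf and 11272 to 21434 in sham-vehicle. Atrial markers varied, with Sln at 1.62 to 52.1 CPM in sham-Oxf and 5.61 to 93.9 in sham-vehicle. Cytosolic 7SL RNA, the scaffold of the signal recognition particle, counted here as Rn7s1 plus Rn7s2, took 10.3%, 1.83%, 2.18%, 2.70% and 3.66% of counts in sham-Oxf replicates 1 to 5, and 2.30% to 19.9% in sham-vehicle (median 10.1%). The mean log2 share differed by -1.32 (sham-Oxf minus sham-vehicle), with an exact two-sided permutation p of 0.0270 (0.0809 adjusted over 3 library measures), and -1.73 without replicate 1, with an exact permutation p of 0.00599 (0.0180 adjusted). For the 7SL RNA share the adjusted exact permutation p was also under the 0.05 threshold without sham-vehicle replicate 2 (0.0345) and without sham-vehicle replicate 6 (0.0195). With any other sham library but sham-Oxf replicate 1 left out, the adjusted exact permutation p was 0.0739 to 0.118.

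**Figure D1:**
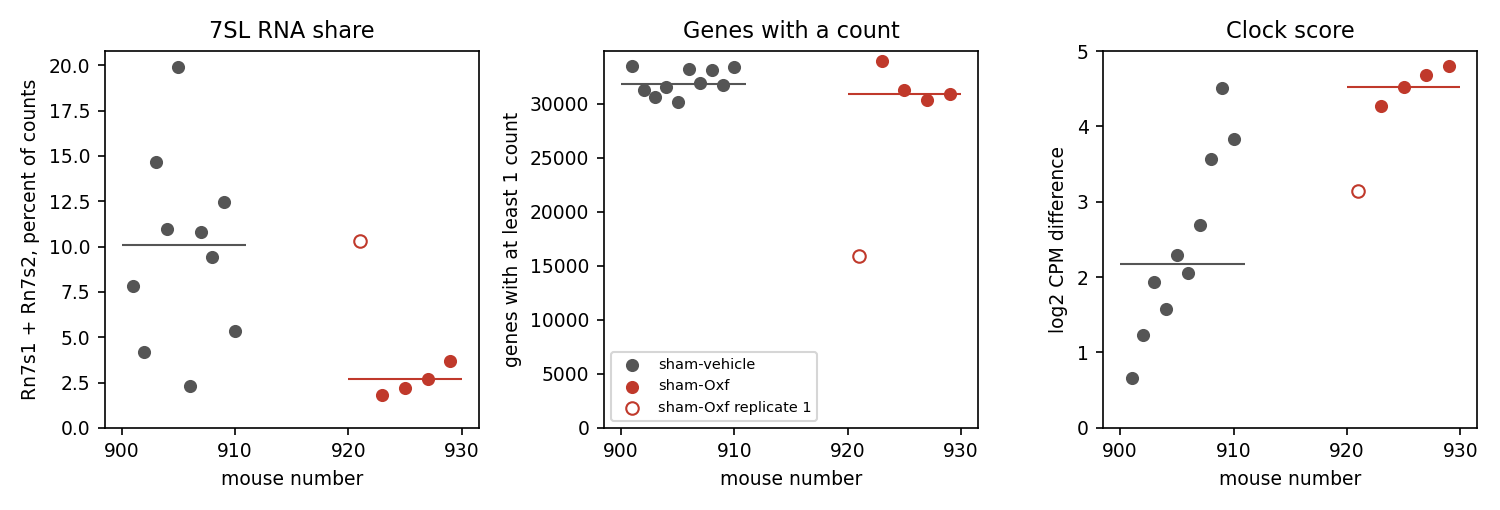
Share of 7SL RNA (percent of counts), genes with a count, and clock score (mean log2 CPM of 8 genes of the Dbp and Per group minus that of Arntl, Npas2, Clock and Nfil3) against mouse number, with 1 point per library and lines at group medians. Sham-Oxf replicate 1 (open) lists 15879 genes, and the 2 treatment groups have mouse numbers that do not overlap.

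The clock score, the mean log2 CPM of Dbp, Tef, Per1, Per2, Per3, Nr1d1, Nr1d2 and Ciart minus that of Arntl, Npas2, Clock and Nfil3, was 3.14, 4.28, 4.52, 4.69 and 4.80 in sham-Oxf replicates 1 to 5. In sham-vehicle it ran from 0.664 to 4.50 with a median of 2.17, and it was higher in most later-numbered mice: 0.664 to 2.29 in mice 901 to 905 and 2.05 to 4.50 in mice 906 to 910. Arntl was at 10.6 to 27.4 CPM in mice 901 to 905 and 3.65 to 15.9 CPM in mice 906 to 910, all given vehicle. Mouse numbers were 921 to 929 in sham-Oxf and 901 to 910 in sham-vehicle, so the number of the mouse and the gavage cannot be told apart.

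The clock activator Arntl had a mean of 2.64 ± 1.37 CPM in sham-Oxf (SD, n = 5) against 13.7 ± 8.31 in sham-vehicle (SD, n = 10), and the clock repressor Bhlhe41 had 23.3 ± 3.28 against 14.2 ± 3.67. The natriuretic peptide gene Nppb had 8.86 ± 4.69 CPM against 24.1 ± 15.1, and Rnu1b6, a copy of the U1 small nuclear RNA, had 15.2 ± 7.85 against 139 ± 121. None of these differences passed the test across all genes. No gene passed an adjusted p of 0.05 between sham-Oxf and sham-vehicle in edgeR's quasi-likelihood test with Benjamini-Hochberg adjustment, out of 24273 genes tested (0%). At an unadjusted edgeR p under 0.05 there were 3054 genes (12.6%), 1602 higher in sham-Oxf (6.6%) and 1452 lower (5.98%). DESeq2, which by default replaces outlying counts in the larger groups, called 169 genes and limma voom with sample weights called 34, of which 18 were shared in direction, which is 10.7% of the DESeq2 calls and 52.9% of the voom calls. In edgeR, leaving out sham-Oxf replicate 2 gave 20 genes past the threshold, and leaving out any other 1 sham library gave 0. Without replicate 1, edgeR again called 0 of 24810 genes (0%), with 2290 at an unadjusted p under 0.05 (9.23%), 954 higher (3.85%) and 1336 lower (5.38%), and DESeq2 called 102 and voom 24. Of the 3054 genes, 1357 were also at an unadjusted p under 0.05 in the same direction without replicate 1, which is 44.4% of the 3054 and 59.3% of the 2290. Of these, 883 were lower and 474 higher. The log2 fold changes below are sham-Oxf minus sham-vehicle with their standard errors (SE), and none of them passed the adjusted edgeR test.

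The core activator Arntl (chr7:113207465-113314126 in mm10, plus strand) had the smallest p of the named genes in edgeR. Its level was 2.51, 5.02, 2.15, 1.59 and 1.93 CPM in sham-Oxf replicates 1 to 5, against 3.65 to 27.4 CPM in sham-vehicle with a median of 13.1. The 4 sham-Oxf libraries other than replicate 2 lay below every sham-vehicle library, and replicate 2 lay inside the sham-vehicle range. The log2 fold change was -2.36 ± 0.44 (SE; edgeR adjusted p = 0.103) and -2.35 ± 0.50 without replicate 1 (adjusted p = 0.220). Across 26 alternative settings its adjusted p ran from 6.76e-05 to 0.998, and it passed in DESeq2, with the 7SL share as a covariate and without sham-Oxf replicate 2. Its partner Clock was at 52.0, 34.3, 44.5, 43.4 and 39.5 CPM in sham-Oxf and 47.3 to 73.8 in sham-vehicle, a log2 fold change of -0.54 ± 0.15 (adjusted p = 0.168; -0.62 ± 0.16 without replicate 1). Replicate 1 was the sham-Oxf library inside the sham-vehicle range for Clock. Npas2, the other partner, was at 5.31, 3.31, 2.98, 3.03 and 3.10 CPM against 3.01 to 11.8, with the highest sham-Oxf value in replicate 1 (log2 fold change -0.83 ± 0.33, and -1.01 ± 0.36 without it).

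Genes that peak opposite to Arntl had log2 fold changes of the opposite sign. Dbp, an output transcription factor, was at 63.1, 96.0, 130, 105 and 106 CPM in sham-Oxf and 24.1 to 95.1 in sham-vehicle (log2 fold change 0.94 ± 0.32, adjusted p = 0.237, and 1.07 ± 0.35 without replicate 1). The 4 sham-Oxf libraries other than replicate 1 all lay above every sham-vehicle library. Hlf was at 23.5, 40.8, 62.3, 50.02 and 49.5 CPM against 14.9 to 43.3 (0.82 ± 0.22, and 0.99 ± 0.22 without replicate 1), and Tef at 85.5, 163, 189, 237 and 259 against 61.3 to 178 (0.87 ± 0.26, and 1.05 ± 0.26 without it). Among the repressors, Per3 was at 75.3, 178, 149, 210 and 222 CPM against 35.5 to 162 (1.14 ± 0.36, adjusted p = 0.210, and 1.33 ± 0.37 without replicate 1), so replicate 1 lay inside the sham-vehicle range, as it did for Dbp, Hlf and Tef. Per1 was at 109, 224, 209, 273 and 280 CPM against 37.7 to 243 (0.82 ± 0.36, and 0.99 ± 0.38 without replicate 1), and Per2 at 49.99, 113, 116, 121 and 163 against 12.5 to 162 (0.94 ± 0.48, and 1.13 ± 0.51 without it), with replicate 1 the lowest sham-Oxf library for both. Ciart, another repressor, had a mean of 20.6 ± 10.0 CPM (SD, n = 5) against 9.44 ± 7.64 (SD, n = 10) and a log2 fold change of 1.13 ± 0.46, and 1.38 ± 0.46 without replicate 1. Bhlhe41, a repressor that competes with the activators for E-boxes, was at 20.5, 27.04, 26.6, 20.2 and 22.5 CPM against 9.76 to 19.5, so the groups did not overlap with or without replicate 1 (0.72 ± 0.16, adjusted p = 0.103, and 0.76 ± 0.17 without it). Cry2 was at 16.6, 39.9, 40.5, 43.2 and 46.6 CPM against 20.0 to 35.7, with replicate 1 below all sham-vehicle libraries and the other 4 above all of them (0.46 ± 0.18, and 0.65 ± 0.15 without replicate 1). The mitotic kinase gene Wee1, a clock target, was at 13.6, 11.1, 18.7, 11.9 and 16.6 CPM against 3.65 to 13.8 (1.01 ± 0.24, adjusted p = 0.131, and 1.03 ± 0.26 without replicate 1). Nr1d1, which represses Arntl, was at 137, 149, 156, 125 and 117 CPM against 82.8 to 171, so all 5 sham-Oxf values lay inside the sham-vehicle range (0.10 ± 0.22, adjusted p = 0.893, and 0.099 ± 0.24 without replicate 1). In GENCODE M21, Arntl, Npas2, Dbp, Tef, Cry2, Nr1d1, Bhlhe41, Ciart, Wee1 and Cald1 each overlap a gene on the opposite strand. Per3 overlaps Camta1 on the same strand, and Clock and Npas2 also overlap a gene on their own strand. Some other genes named in the text, such as Tbc1d2b, Vsir and Usp2, overlap an opposite-strand gene too. Whether counting used strand is not given in the sources used here, so reads of such pairs may not be told apart.

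**Figure D2:**
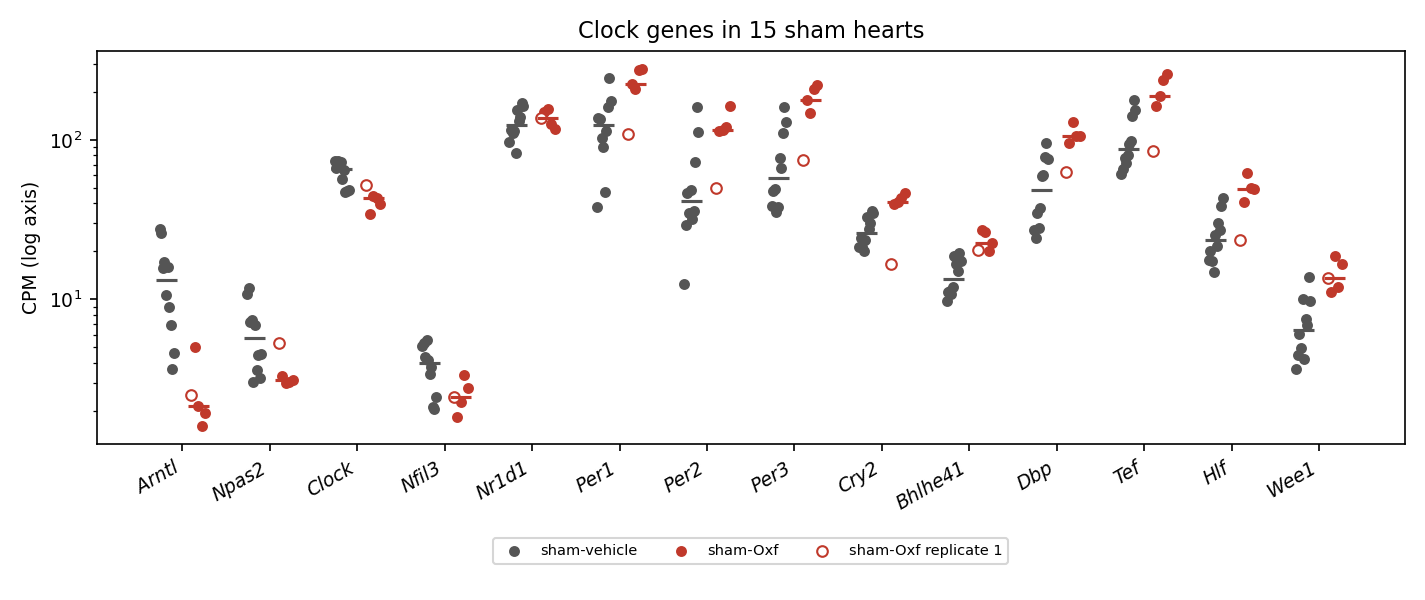
CPM on a log axis for 14 clock genes, with 1 point per sham library, lines at group medians and sham-Oxf replicate 1 open. Arntl is lower in sham-Oxf (1.59 to 5.02 CPM) than in most sham-vehicle libraries, and Bhlhe41 is the repressor whose groups do not overlap.

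By list, the 9 tested repressors had 5 members higher and 1 lower at an unadjusted edgeR p under 0.05. The lower member was Nfil3, which the clock score groups with Arntl. Over all genes tested, 6.6% were higher and 5.98% lower, and 3.85% and 5.38% without replicate 1. The median log2 fold change of the repressors was 0.72 beside -0.04 over all genes tested. Without replicate 1 the repressors had 7 higher and 0 lower, with a median of 0.76 beside 0.03. The 11 output genes had 5 higher and 0 lower (7 and 0 without replicate 1), with medians of 0.37 and 0.65. The 8 activators and nuclear receptors had 3 higher and 3 lower (Arntl, Clock and Npas2 were the lower ones), and 1 and 3 without replicate 1. The clock score moves with these counts by construction. When only the 5 sham-vehicle mice 906 to 910 were used as controls, the log2 fold change was -1.59 for Arntl, 0.44 for Dbp, 0.61 for Per3 and 0.42 for Bhlhe41, and with the clock score as a covariate it was -0.89 for Arntl, -0.04 for Dbp, 0.07 for Per3 and 0.35 for Bhlhe41.

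The promoters of 4 of these genes are printed to show the elements named above, with 250 bases before and 50 after the start, from RefSeq (GRCm38.p6), 5′ to 3′ on the strand of the gene. Capitals mark the E-box CACGTG, the D-box TTATGTAA and the letters TNGGTCA, searched on both strands. TNGGTCA is looser than the core bound by Nr1d1 and Rora, so a match need not be that core. These windows are chr7:113207215-113207514 (Arntl, plus strand), chr3:95882179-95882478 (Ciart, minus), chr4:151044616-151044915 (Per3, minus) and chr6:145865371-145865670 (Bhlhe41, minus).
Arntl: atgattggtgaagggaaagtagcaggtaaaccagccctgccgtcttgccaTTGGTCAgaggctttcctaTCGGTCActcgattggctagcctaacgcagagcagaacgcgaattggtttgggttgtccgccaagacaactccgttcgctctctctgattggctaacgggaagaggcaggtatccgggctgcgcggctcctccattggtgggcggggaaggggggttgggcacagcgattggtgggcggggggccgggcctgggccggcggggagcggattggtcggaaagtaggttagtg
Ciart: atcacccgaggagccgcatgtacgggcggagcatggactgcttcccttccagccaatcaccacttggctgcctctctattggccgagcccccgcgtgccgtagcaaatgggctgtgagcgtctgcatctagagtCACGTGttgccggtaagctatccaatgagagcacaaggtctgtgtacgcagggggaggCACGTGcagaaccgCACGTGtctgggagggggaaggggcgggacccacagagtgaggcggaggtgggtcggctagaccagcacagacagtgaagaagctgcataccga
Per3: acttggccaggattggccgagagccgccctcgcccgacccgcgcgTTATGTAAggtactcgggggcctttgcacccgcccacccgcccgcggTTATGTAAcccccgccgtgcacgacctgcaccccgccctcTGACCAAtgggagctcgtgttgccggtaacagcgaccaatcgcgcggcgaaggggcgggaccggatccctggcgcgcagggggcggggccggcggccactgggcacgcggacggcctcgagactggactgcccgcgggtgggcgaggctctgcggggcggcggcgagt
Bhlhe41: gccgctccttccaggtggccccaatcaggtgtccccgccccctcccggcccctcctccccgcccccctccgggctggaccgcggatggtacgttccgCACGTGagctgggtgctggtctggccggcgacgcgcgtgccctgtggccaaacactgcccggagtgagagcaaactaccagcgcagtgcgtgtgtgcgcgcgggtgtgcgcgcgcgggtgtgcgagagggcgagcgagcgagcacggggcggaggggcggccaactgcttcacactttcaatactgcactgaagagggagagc

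The Arntl window matches TNGGTCA 200 and 181 bases before the start, as TTGGTCA and TCGGTCA. Another Arntl promoter window, not printed, also holds TAGGTCA 30 bases after its start. The Ciart window holds E-boxes at 116, 58 and 44 bases before the start. Per3 holds D-boxes at 205 and 158 bases before the start and a TNGGTCA match at 118, and Bhlhe41 an E-box at 153. Of 23 clock genes looked up, 19 matched and had 26 promoters. An E-box was in 7 promoters of 6 genes, a D-box in 1 and TNGGTCA in 6 promoters of 5 genes. Of all 32851 promoters of the same length, 7.15% hold the E-box, 0.938% the D-box and 11% TNGGTCA. These are matches to letters and not shown to be bound. Dbp has none of the 3 motifs in its window, and neither do Hlf, Usp2, Clock, Npas2, Nr1d1, Nr1d2, Rora and Rorb in theirs.

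Some genes outside the clock lists also had groups that did not overlap. Groups did not overlap for 24 genes higher in sham-Oxf (0.0989%) and 31 lower (0.128%), and without replicate 1 for 67 higher (0.27%) and 68 lower (0.274%). Slc46a3, a lysosomal transporter gene, was at 6.83, 8.17, 6.95, 8.57 and 8.56 CPM in sham-Oxf, above the 2.96 to 5.45 of sham-vehicle (log2 fold change 0.82 ± 0.16, adjusted p = 0.103, and 0.87 ± 0.16 without replicate 1). Stk35, Tbc1d2b and Vsir also lay above every sham-vehicle library in all 5 sham-Oxf libraries, with log2 fold changes of 0.52 ± 0.13, 0.43 ± 0.10 and 0.39 ± 0.09, and 0.54 ± 0.13, 0.39 ± 0.10 and 0.37 ± 0.10 without replicate 1. Vsir, an immune checkpoint gene, ran from 29.0 to 34.2 CPM against 21.7 to 28.8. Cald1, which encodes the actin-binding protein caldesmon, was at 57.0, 69.8, 71.3, 63.9 and 49.2 CPM, below the 76.3 to 118 of sham-vehicle (-0.53 ± 0.12, adjusted p = 0.103, and -0.50 ± 0.13 without replicate 1). Slc41a3, a magnesium transporter gene, was at 14.0, 9.61, 11.8, 9.24 and 11.1 CPM against 12.2 to 23.95, with replicate 1 inside that range (-0.76 ± 0.17, adjusted p = 0.122, and -0.85 ± 0.18 without it). With the clock score as a covariate the log2 fold change was 0.52 for Slc46a3, -0.36 for Cald1 and -0.23 for Slc41a3.

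Of the natriuretic genes, Nppb, which encodes B-type natriuretic peptide, was at 17.2, 6.28, 6.75, 7.43 and 6.64 CPM in sham-Oxf and 6.56 to 55.2 in sham-vehicle with a median of 22.7. The 4 libraries other than replicate 1 lay between 6.28 and 7.43 CPM, near the lowest sham-vehicle value, and replicate 2 lay below it. The log2 fold change was -1.45 ± 0.42 (adjusted p = 0.186) and -1.83 ± 0.45 without replicate 1 (adjusted p = 0.283). Nppa, the atrial peptide gene, spanned 30.4 to 933 CPM in sham-Oxf and 97.9 to 1255 in sham-vehicle (-0.49 ± 0.52, and -0.44 ± 0.58 without replicate 1). Of the 8 members tested, 0 were higher and 1 lower at an unadjusted edgeR p under 0.05, with or without replicate 1. Over all genes, 6.6% were higher and 5.98% lower at that threshold, and 3.85% and 5.38% without replicate 1. The median log2 fold change of the list was -0.04 beside -0.04 for all genes, and 0.10 beside 0.03 without replicate 1. With the 7SL share as a covariate the Nppb log2 fold change was -0.77, and with the clock score it was -0.81. Of the 15 fetal and stretch genes tested, 0 were higher and 0 lower at that threshold (median -0.15), and 0 and 1 without replicate 1 (median -0.18).

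Among the genes of lowest p were several noncoding RNAs. Rnu1b6, Gm26232 and Gm24830 are copies of the gene of U1, the small nuclear RNA that recognises 5′ splice sites, and their sequences are identical over 166 bases, so reads from them cannot be told apart and they count as 1 observation. Rnu1b6 was at 28.9, 11.8, 14.5, 9.92 and 10.8 CPM in sham-Oxf against 12.2 to 348 in sham-vehicle with a median of 108 (log2 fold change -3.20 ± 0.80, adjusted p = 0.157, and -3.56 ± 0.91 without replicate 1). The U1 copies Gm22513 and Gm22042 gave -3.03 ± 0.76 and -3.22 ± 0.80, and -3.39 ± 0.87 and -3.58 ± 0.91 without replicate 1. Sequences are printed 5′ to 3′ from GENCODE M21, to show how alike the copies are. Capitals mark the first 11 bases, the end that pairs with the splice site. The copies lie at chr3:96460024-96460189 (Rnu1b6), chr12:54696782-54696945 (Gm22513) and chr4:51812483-51812647 (Gm22042).
Rnu1b6: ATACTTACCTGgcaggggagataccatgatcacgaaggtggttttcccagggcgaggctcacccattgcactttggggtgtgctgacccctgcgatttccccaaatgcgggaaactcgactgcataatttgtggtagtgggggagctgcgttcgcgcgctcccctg
Gm22513: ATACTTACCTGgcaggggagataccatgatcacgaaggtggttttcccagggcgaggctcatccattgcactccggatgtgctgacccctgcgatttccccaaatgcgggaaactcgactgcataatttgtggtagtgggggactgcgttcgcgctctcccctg
Gm22042: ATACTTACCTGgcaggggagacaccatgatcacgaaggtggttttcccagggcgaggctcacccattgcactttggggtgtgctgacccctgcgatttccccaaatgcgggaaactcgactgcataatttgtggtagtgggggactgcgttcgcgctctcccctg

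Rn7sk, the RNA that holds the elongation factor P-TEFb inactive, was at 2860, 1940, 1934, 2074 and 1624 CPM against 1925 to 10790 (-1.48 ± 0.39, adjusted p = 0.166, and -1.62 ± 0.44 without replicate 1), and with the 7SL share as a covariate its log2 fold change was -0.53 and that of Rnu1b6 was -0.996. Rnu12, of the minor spliceosome, was at 7.68, 0.743, 0.448, 0.513 and 0.052 CPM against 1.44 to 20.4, so without replicate 1 all sham-Oxf libraries lay below every sham-vehicle library. Its log2 fold change was -2.38 ± 0.83 with replicate 1, which lay inside the sham-vehicle range, and -4.38 ± 0.90 without it. Snord17, a small nucleolar RNA, was at 5.12, 2.30, 1.58, 1.41 and 1.30 CPM against 2.604 to 35.6 (-2.596 ± 0.66, and -3.07 ± 0.74 without replicate 1). By annotated class, 37 of 172 small nuclear RNA genes (21.5%), 25 of 139 small nucleolar RNA genes (18%) and 6 of 14 small Cajal body RNA genes (42.9%) were lower at an unadjusted p under 0.05, beside 5.98% of all genes. Without replicate 1 the counts were 45 of 187 (24.1%), 26 of 157 (16.6%) and 6 of 14 (42.9%), beside 5.38% of all genes. Higher at that threshold were 8 (4.65%), 9 (6.47%) and 0, beside 6.6% of all genes, and 4, 2 and 0 without replicate 1. The class medians were -0.26, -0.28 and -0.71, beside -0.04 over all genes. Without replicate 1 they were -0.01, -0.05 and -0.76, beside 0.03. Of 174 microRNA genes, 12 were higher (6.9%) and 9 lower (5.17%). Copies of identical sequence, such as Rnu1b6, Gm26232 and Gm24830, enter these counts as separate genes, so the shares are not of independent observations. The 7SL share in these libraries moves with these RNAs, and its part in them was not tested beyond the covariate values above. Of the 8 tested members of the abundant small RNA list, 0 were higher and 7 lower (median -1.56, and -2.09 without replicate 1). Its members Rn7s1 and Rn7s2 had near-equal log2 fold changes (-2.2503 and -2.25028 in DESeq2 without replicate 1) and may not be separate observations.

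**Figure D3:**
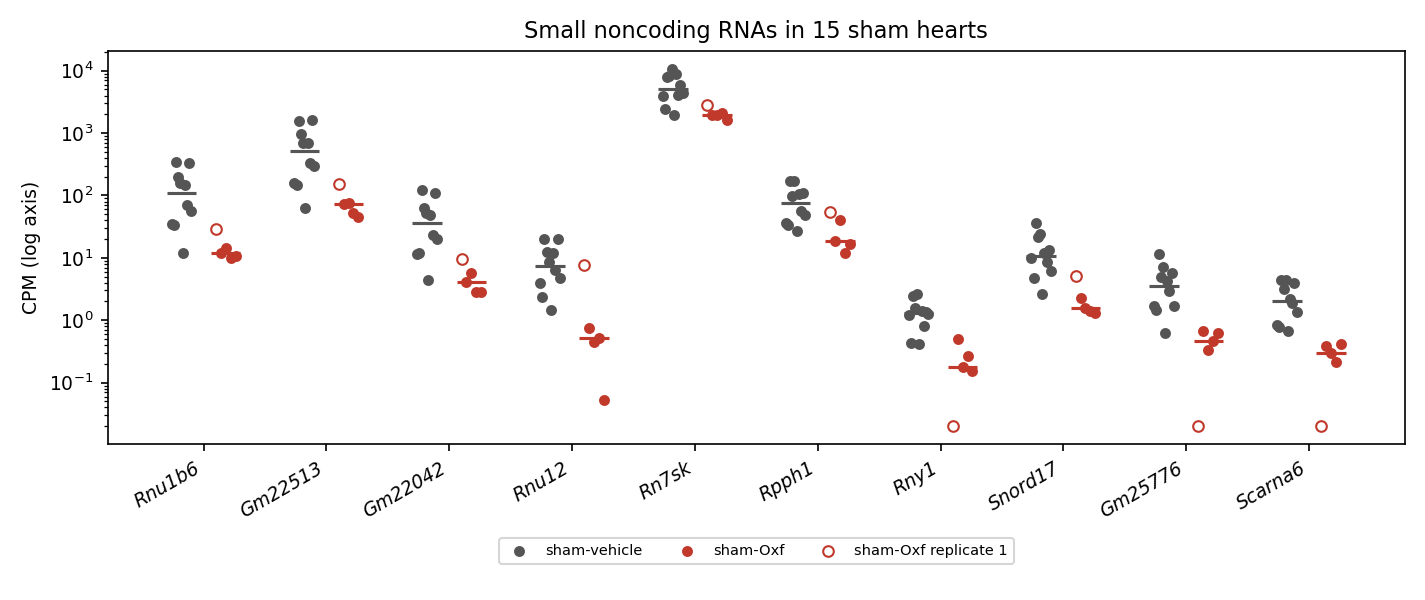
CPM on a log axis for 10 small noncoding RNAs in the 15 sham libraries, with 1 point per library, group medians as lines, sham-Oxf replicate 1 open and values of 0 (replicate 1 for Rny1, Gm25776 and Scarna6) drawn at the bottom. Rnu1b6 is at 9.92 to 28.9 CPM in sham-Oxf and 12.2 to 348 in sham-vehicle.

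For the lists that follow, the shares over all genes at an unadjusted edgeR p under 0.05 are 6.6% higher and 5.98% lower, and 3.85% and 5.38% without replicate 1. Of the 17 nuclear respiratory chain genes, 0 were higher and 4 lower (median -0.36), and 0 and 5 without replicate 1 (median -0.53), and all 17 had a negative log2 fold change in both fits. Their summed level ran from 1478 to 4057 CPM in sham-Oxf, highest in replicate 1, and from 2217 to 6768 in sham-vehicle. The median sum went the other way, at 2965 CPM in sham-Oxf and 2648 in sham-vehicle. Ndufa4, a cytochrome oxidase subunit, was at 48.7, 16.8, 30.6, 35.96 and 22.3 CPM against 27.5 to 163 (-1.17 ± 0.42, adjusted p = 0.264, and -1.40 ± 0.48 without replicate 1). Of the 15 mitochondrial genome genes 0 were higher and 3 lower (median -0.58), and 0 and 4 without replicate 1 (median -0.43). Of the 23 ribosomal protein genes 0 were higher and 4 lower (median -0.29), and 0 and 5 without it (median -0.34). Of the 15 heat shock and cold-inducible genes 0 were higher and 4 lower (median -0.47), namely Hspa1a, Hspa1b, Hsp90aa1 and Hspe1, and 0 and 3 without replicate 1 (median -0.45). Hsp90aa1, a chaperone gene, was at 45.1, 46.6, 52.6, 57.3 and 58.5 CPM against 35.0 to 234 (-0.84 ± 0.28, and -0.79 ± 0.32 without replicate 1). Fatty acid oxidation had 2 higher and 4 lower of 23 (median -0.26), and 1 and 4 without replicate 1 (median -0.42), among them Pdk4, the kinase that restrains pyruvate oxidation (-0.81 ± 0.31, and -0.77 ± 0.34 without it), and Cpt1a, which carries fatty acids into mitochondria (0.35 ± 0.14, and 0.36 ± 0.15 without it).

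Ion channel and calcium handling genes had 7 higher and 1 lower of 22 at an unadjusted p under 0.05 (median 0.31), beside 6.6% and 5.98% of all genes, and 6 and 2 without replicate 1 (median 0.24), beside 3.85% and 5.38%. The potassium channel genes Kcnd3 and Kcnh2 gave 0.47 ± 0.18 and 0.50 ± 0.18, and 0.42 ± 0.20 and 0.52 ± 0.20 without replicate 1. The member lower in both fits was Slc41a3. Nmrk2, which phosphorylates nicotinamide riboside, was at 43.4, 30.2, 19.7, 43.3 and 41.1 CPM against 11.7 to 34.6 (0.80 ± 0.25, adjusted p = 0.210, and 0.72 ± 0.27 without replicate 1), and was 1 of the 10 NAD and sirtuin genes, and the sole member, at an unadjusted p under 0.05. Of 12 genes of oxalate, glyoxylate and hydroxyproline handling, 3 were higher and 1 lower, and without replicate 1 this was 1 and 1. Slc26a6, an oxalate and chloride exchanger gene, was at 23.3, 11.5, 10.2, 12.5 and 14.8 CPM against 8.98 to 13.8, with the highest value in replicate 1 (0.47 ± 0.17, and 0.24 ± 0.15 without it). Hoga1, of hydroxyproline breakdown, and Prodh, of proline breakdown, gave 0.57 ± 0.27 and 0.38 ± 0.19, and 0.18 ± 0.22 and 0.47 ± 0.20 without replicate 1. Prodh2, the hydroxyproline counterpart of Prodh, did not pass the filter on low counts and was not tested.

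Fibrosis and matrix genes had 0 higher and 2 lower of 18 (median -0.17), beside 5.98% of all genes lower, and 0 and 3 without replicate 1 (median -0.22, beside 5.38%). The 2 were Postn, an extracellular matrix gene of activated fibroblasts, and Col3a1, a fibrillar collagen. Postn was at 14.4, 34.0, 28.8, 18.3 and 18.9 CPM against 16.0 to 85.1 (-0.78 ± 0.28, adjusted p = 0.259, and -0.65 ± 0.30 without replicate 1), and Col3a1 gave -0.69 ± 0.28 and -0.67 ± 0.32. Inflammation genes had 0 higher and 0 lower of 19 (median -0.30), and 1 and 0 without replicate 1 (median -0.14). Interferon-stimulated genes had 0 higher and 1 lower of 19 (median -0.25), and 0 and 2 without replicate 1 (median -0.15), beside 5.98% and 5.38% of all genes lower. Ifi27l2a was at 0, 4.10, 3.67, 2.05 and 2.97 CPM against 2.5999 to 33.7 (-2.09 ± 0.56, adjusted p = 0.168, and -1.79 ± 0.50 without replicate 1). Its 0 is in replicate 1, the library with 8831 tested genes at 0.

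The ventricle was sequenced as bulk tissue, so fewer cells of a type and less RNA per cell cannot be told apart. Fibroblast markers had 0 higher and 2 lower of 9 tested, all 9 negative (median -0.42), and 0 and 2 without replicate 1 (median -0.49), beside 6.6% higher and 5.98% lower of all genes (3.85% and 5.38% without replicate 1). Their summed level was 703 to 1648 CPM in sham-Oxf and 773 to 2524 in sham-vehicle. Endothelial markers had 0 higher and 2 lower of 10 (median -0.17), and 0 and 3 without replicate 1 (median -0.26). Atrial markers were all negative in the 7 tested (median -0.50, and -0.45 without replicate 1), summing to 83.5 to 2367 CPM in sham-Oxf and 247 to 3075 in sham-vehicle. Skeletal muscle markers were also all negative in the 9 tested (median -1.91, and -1.66 without replicate 1), summing to 115 to 333 CPM against 116 to 824. Negative signs were not particular to these lists. They were seen in 10 of 12 cardiomyocyte, 11 of 12 macrophage, 7 of 9 mural and 9 of 10 fat markers. Without replicate 1 these counts were 10, 10, 6 and 9. Of 3 neutrophil markers tested, 2 were positive. Over all genes tested, 13338 of 24273 were negative, and 11607 of 24810 without replicate 1. The direction of the erythroid markers depended on replicate 1. Their sum was 123 CPM in that library and 6.03 to 22.2 in the others, beside 13.3 to 41.5 in sham-vehicle, and the count was 2 higher and 1 lower of 7 with replicate 1 but 0 and 5 without it, with medians of 0.57 and -1.84. Hbb-bs, a beta globin gene, was at 17.5, 0.158, 0.716, 0.730 and 0.495 CPM against 1.07 to 4.15 (0.70 ± 0.76, and -2.18 ± 0.74 without replicate 1). The liver marker sum was 105 CPM in replicate 1 against 13.0 to 58.1 in sham-vehicle. Lymphocyte markers reached a sum of 770 CPM in 1 sham-Oxf library, and the next highest sham-Oxf sum was 60.2. The median sum was 11.1 CPM in sham-Oxf, below the 29.9 of sham-vehicle, where the highest was 211. All 10 tested had a positive log2 fold change (median 0.71, and 1.01 without replicate 1), with 0 at an unadjusted edgeR p under 0.05. This sign is opposite to that of the median sums, and the part of the single high library in it was not tested. The lymphocyte marker Cd79a was at 18.1 CPM in sham-Oxf replicate 2 and 0 to 2.12 CPM in the other sham-Oxf libraries. The part of these cell markers in any result above was not tested.

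**Figure D4:**
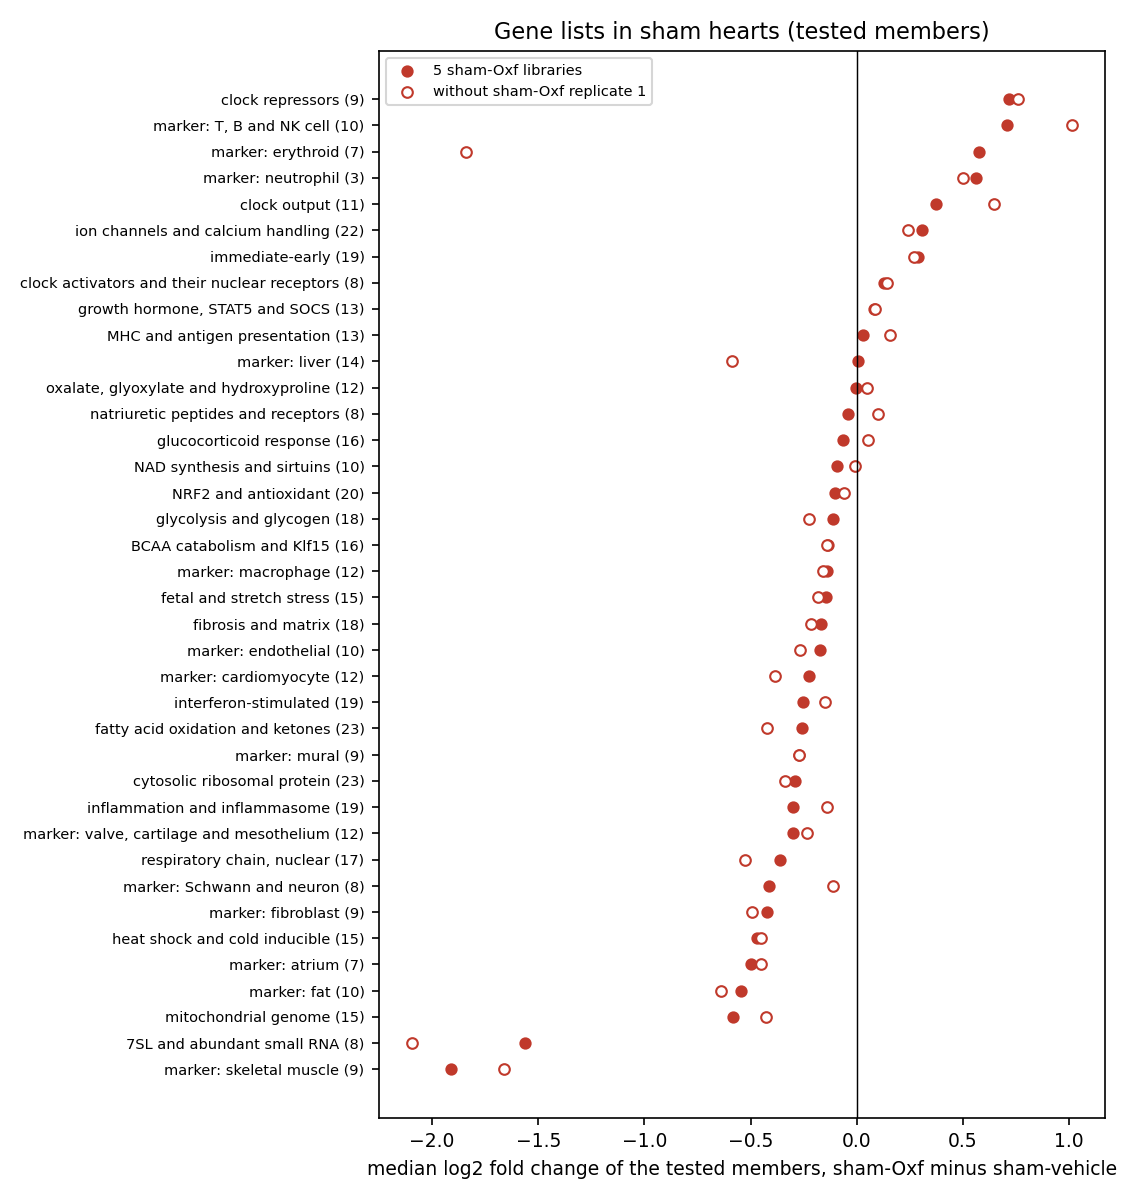
Median log2 fold change of the tested members (number in brackets) of each gene list, for the 5 sham-Oxf libraries (filled) and without replicate 1 (open). Clock repressors stand at 0.72 and the abundant small RNA list at -1.56, and the erythroid list moves from 0.57 to -1.84 without replicate 1.

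The effect of Oxf in CKD hearts, 7 CKD-Oxf against 6 CKD-vehicle libraries, shares no library with the sham comparison. Mouse numbers are again separate, 931 to 940 in CKD-Oxf and 913 to 920 in CKD-vehicle, and the clock score was 3.68 ± 0.65 (SD, n = 7) against 0.816 ± 1.08 (SD, n = 6), so there too mouse number and gavage cannot be told apart. Its fit called 8 of 24273 genes at an adjusted edgeR p under 0.05 (0.033%): Dbp, Tef, Hlf, Cry2, Bhlhe41, Slc41a3, AC113514.2 and RP23-404D8.10. All 8 had the same sign in sham. The log2 fold change was 2.08 ± 0.36 for Dbp in CKD and 0.94 ± 0.32 in sham, and 1.498 ± 0.28 and 0.87 ± 0.26 for Tef. Slc41a3 gave -1.05 ± 0.17 in CKD and -0.76 ± 0.17 in sham, and Nppb gave -1.89 ± 0.40 in CKD. No gene differed between the 2 effects at an adjusted edgeR p under 0.05 (0%), with 862 at an unadjusted p under 0.05 (3.55%), and DESeq2 called 1 gene. At an unadjusted edgeR p under 0.05 there were 3178 of 24273 genes in CKD (13.1%) and 3054 in sham (12.6%). Of these, 828 had the same direction in sham and CKD, which is 27.1% of the sham genes and 26.1% of the CKD genes. The opposite direction was seen for 13.

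**Figure D5:**
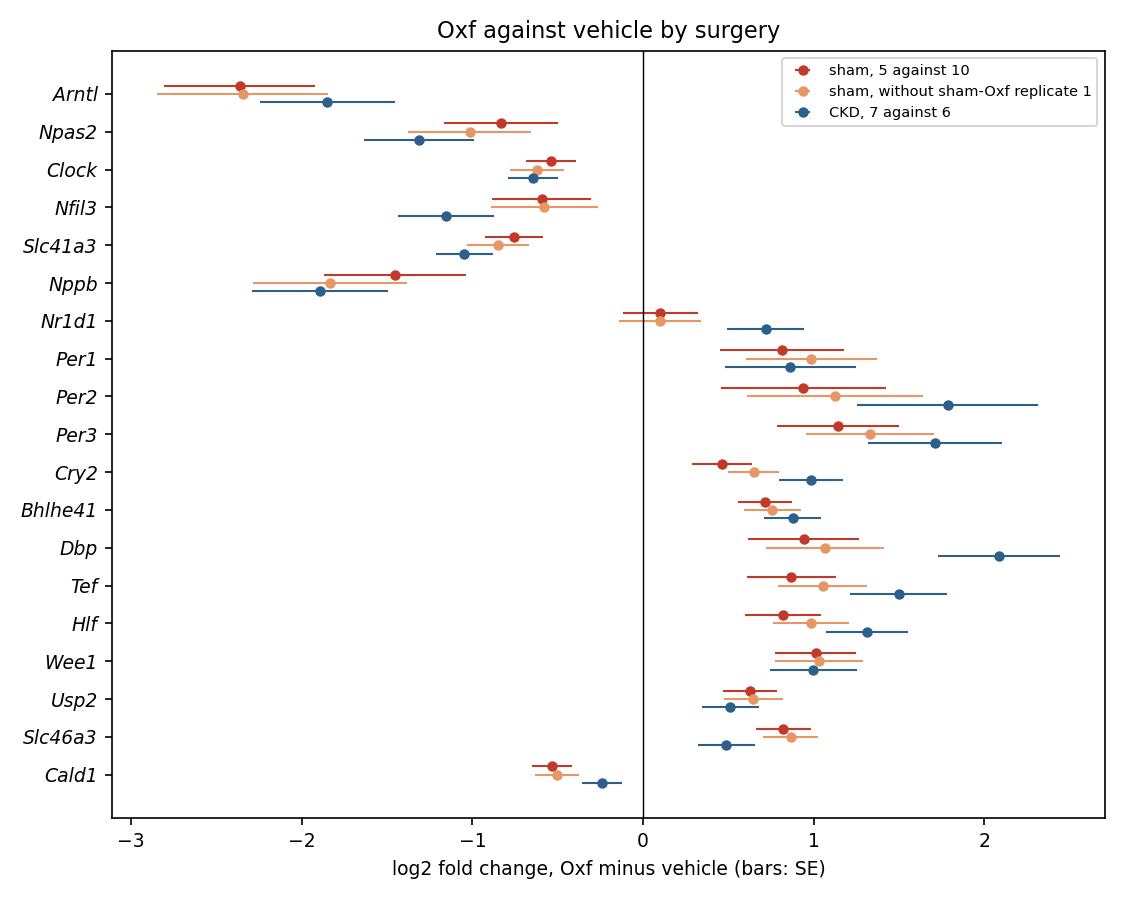
Log2 fold change of Oxf against vehicle (points) with its SE (bars) in sham hearts, in sham hearts without replicate 1 and in CKD hearts for 19 genes. Arntl is at -2.36 in sham, and Dbp at 0.94 in sham and 2.08 in CKD.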

How the data were processed

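RNA-seq libraries were made from the total RNA of ventricular myocardium, 1 library per mouse. Per the submitters' processing notes, FastQC 0.11.7, MultiQC 1.9, STAR 2.6.1d, Subread and featureCounts 1.6.3 were used with mm10; the annotation, the use of strand and the handling of reads that map to several places are not given in the sources used here. The authors deposited raw counts per gene for 28 libraries and 45513 genes, of which 45465 have an identifier in GENCODE M21. Groups were taken from the sample titles.

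Counts were tested with edgeR 4.0.16 (R 4.3.3; TMM scaling, filterByExpr by group with a minimum count of 10, robust quasi-likelihood fit) in 1 fit of 28 libraries with 4 group means, and Benjamini-Hochberg adjustment over 24273 genes with a threshold of 0.05. The fit was repeated without sham-Oxf replicate 1. CPM values are counts in each 1000000 of the TMM-scaled library size. The script was tested on simulated data. DESeq2 1.42.0, limma 3.58.1, other scalings and filters, covariates, sham libraries alone and leaving out each sham library were the alternatives. Library measures were compared by exact two-sided permutation tests over 3003 regroupings (smallest p 0.000333). The labels give each library its own mouse, and replicate numbers follow accession order and pair no libraries.

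The members and gene lists were chosen with earlier results of these data known. Named genes were the 12 of smallest p in each direction and fit among genes averaging 1 log2 CPM or more, the clock and natriuretic lists, up to 4 of smallest p in each other list, and the 8 of smallest p in CKD; the tissue markers Myh6 and Sln were named as checks of the label. Promoters are from RefSeq and small RNA sequences from GENCODE M21. Totals of 19.8 to 51.3 M (1000000) counts per sham library limit precision for genes of few counts.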

Additional observations from a re-analysis of the deposited data

Results flagged for a closer look

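In 66 groups of values tested (4 library measures and 29 genes in each of the 2 sham groups, genes as log2 of CPM), 6 had an end value far from the rest by Dixon's criterion, and chance alone would give about 1 in 20, or 3.3. Sham-Oxf replicate 1 was the library in 5 of the 6.

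For the number of genes with a count, replicate 1 was lowest and its gap to the next library was 0.796 of the range of the group. It was highest for Npas2 (0.821) and Nppb (0.834), and lowest for Cry2 (0.849) and Ifi27l2a (0.846). Ifi27l2a is listed at 0 in this library, so its gap depends on the 0.05 CPM added before taking log2. In the sham-vehicle group, replicate 1 was lowest for Usp2, a clock-controlled ubiquitin protease gene, with a gap of 0.537 of the range.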

How the results depend on the processing

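No paired analysis was possible because the replicate numbers were given in accession order and each mouse belongs to 1 group. The count of genes past the adjusted threshold, 0 in edgeR, was 169 in DESeq2, 34 in voom, 141 with the log2 7SL share as a covariate and 2 with the clock score as a covariate (RP23-256D7.2 and Dkk2, named after their values were seen). It ran from 0 to 20 over leaving out each sham library, with 20 without sham-Oxf replicate 2. It stayed at 0 when scaled by upper quartile or by the size factors of DESeq2, without a filter on low counts, on genes that reach 10 counts in each library, from sham libraries only, with the Rn7s1 and Rn7s2 rows removed, or mice 906 to 910 as controls. Without sham-Oxf replicate 1 it was 102 in DESeq2 and 24 in voom, and 0 in edgeR with either covariate. The difference between sham and CKD was 0 genes in edgeR and 1 in DESeq2 (Bpifa1, named after its values were seen). Leaving out 1 library moved the 7SL difference between -1.73 and -1.11, the difference in total counts between -11.2 and -6.37 M, and that in genes with a count between -4926 and -397. Of 1527 values of 59 genes under the alternatives, 1477 kept their direction and side of the threshold, 34 newly passed it and 16 changed sign. With the clock score as a covariate the log2 fold changes became -0.041 for Dbp, -0.046 for Tef, -0.062 for Prodh, -0.21 for Nr1d1, -0.25 for Per1, -0.33 for Ciart, -0.46 for Nr1d2, -0.51 for Per2, 0.040 for Npas2, 0.0499 for Nppa and 0.18 for Nfil3; several of these genes form the score. Nr1d1 became -0.14 with the 7SL share and -0.15 with mice 906 to 910, where Nr1d2 became -0.049. Hbb-bs became -2.10 in voom and ran from -2.18 (without sham-Oxf replicate 1) to 1.02 (without sham-Oxf replicate 2) over leaving out each library. The cause of these shifts was not tested.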
